A study of Homo sapiens with 12 samples.

Results

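The 53 genes described here encode the proteins that prepare, start and carry out DNA replication, together with the cyclins, kinases and E2F and pocket proteins that control entry into S phase. They were matched by symbol to the deposited table of raw counts per gene, and the list itself was drawn up with earlier results of these data known. All 53 were found among the 56638 rows of the table, and all 53 passed the filter on low counts that left 19130 genes for testing. RNA-seq had been done on NT2/D1, pluripotent human embryonal carcinoma cells that turn towards neurons when given all-trans retinoic acid (ATRA). The 12 libraries fall into 4 groups of 3: PRMT6 knockout cells with ATRA (KO ATRA), CRISPR/Cas9 control cells with ATRA (CT ATRA), PRMT6 knockout cells without ATRA (KO untreated) and CRISPR/Cas9 control cells without ATRA (CT untreated). ATRA was given at 1 µM over 3 days. All 6 knockout libraries carry the name of a single knockout line, KO-2, so a property of that line and the loss of PRMT6 cannot be told apart. Whether the 3 libraries within each group are separate cultures is not stated, and the p-values below therefore measure the spread between libraries, which may be technical.

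PRMT6 is an arginine methyltransferase whose best known mark is asymmetric dimethylation of arginine on the tail of histone H3. Before a cell can copy its DNA, the origin recognition complex, CDC6 and CDT1 load the ring of MCM2 to MCM7 onto origins in G1, which is called licensing. At the start of S phase, the kinase CDC7 with its activator DBF4 and the cyclin-dependent kinase CDK2 turn this ring into an active helicase by adding CDC45 and the GINS complex, and DNA polymerases, the clamp PCNA and its loader RFC then assemble at the fork. Cyclin D with CDK4 or CDK6, and cyclin E with CDK2, phosphorylate the pocket proteins RB1 and RBL1, which frees E2F factors to transcribe most of these genes.

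PRMT6 itself was at 0 to 0.0587 CPM (counts scaled to a common library size) in the 6 knockout libraries, that is 0 to 2 counts, and at 1.94 to 29.9 CPM in the 6 control libraries. Library totals ran from 25469881 to 60394918 counts. Untreated cells of both genotypes carried the embryonal carcinoma and pluripotency list at a summed 5280 to 8600 CPM in KO and 5130 to 8040 CPM in CT. Some knockout libraries stood apart. A chi-square per gene, which is 1 for sampling noise, came to 1.91 between KO ATRA 1 and 3 and 9.01 between KO untreated 1 and 2, against 78.1 to 416 for all other pairs within a group. A list of 10 stromal and fibroblast genes summed to 14700, 15300 and 3370 CPM in KO untreated 1, 2 and 3 and to 836 to 1710 CPM in CT untreated, and to 13600, 2810 and 13500 CPM in KO ATRA 1, 2 and 3 and 973 to 2810 CPM in CT ATRA. KO untreated 3 and KO ATRA 2 were thus the libraries nearest to the controls on this list. Of its 10 genes, 6 were called higher and 0 lower in untreated KO cells, and only FAP was at 0 in any library, in CT untreated 1 and 2. The part of these differences in the results below was not tested, but the counts over all members are also given with the near-identical libraries summed into 1 and without KO untreated 3 and KO ATRA 2.

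In untreated cells, 23 of the 53 genes were called between KO and CT, 12 upward and 11 downward, with calls in opposite directions within the MCM ring and the clamp loader RFC. Neither complex kept calls in both directions with library totals or with the near-identical libraries summed. The same held with each library's trend of level with GC content removed. Genes that rose in KO cells were the helicase subunits MCM2, MCM5 and MCM7, GINS2, RFC2, FEN1, LIG1, TYMS, TK1, CCND3, CDK4 and E2F1, by 1.60 to 2.17-fold. Genes that fell were ORC2, MCM6, CDC7, DBF4, MCM10, POLA1, PRIM1, POLE2, RFC3, RFC4 and RRM1, by 2.05 to 4.09-fold. A call is an adjusted p under 0.05 in edgeR's quasi-likelihood test with Benjamini-Hochberg adjustment over all genes tested. The 23 are 43.4% of the members, against 34.9% of all 19130 genes tested (13% higher and 21.9% lower), so the share called is near that of the whole table. The median log2 fold change was 0.08 over the members and -0.11 over all genes tested. The libraries of KO and CT did not overlap for 15 members that were higher in KO and 14 that were lower, together 29 of 53, against 20.9% higher and 27% lower of all genes, together 47.9%. Scaled by library totals, where the median over all genes was -0.32, the split was 2 higher and 14 lower in place of 12 and 11. Of all genes, 8.54% were called higher and 27.9% lower with that scaling.

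The calls depended on how the near-identical libraries were counted. With KO untreated 1 and 2 summed into 1 library and KO ATRA 1 and 3 into another, 4 members stayed called, all lower in KO (PRIM1, POLE2, RFC3 and RFC4), against 5.42% of all genes. Without KO untreated 3 and KO ATRA 2, 10 members were called, 2 higher and 8 lower, all of them among the 23. Of all genes, 22.7% were called in that fit, 8.8% higher and 13.9% lower. Across 25 fits with other settings, no called member changed sign in untreated cells.

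**Figure D1:**
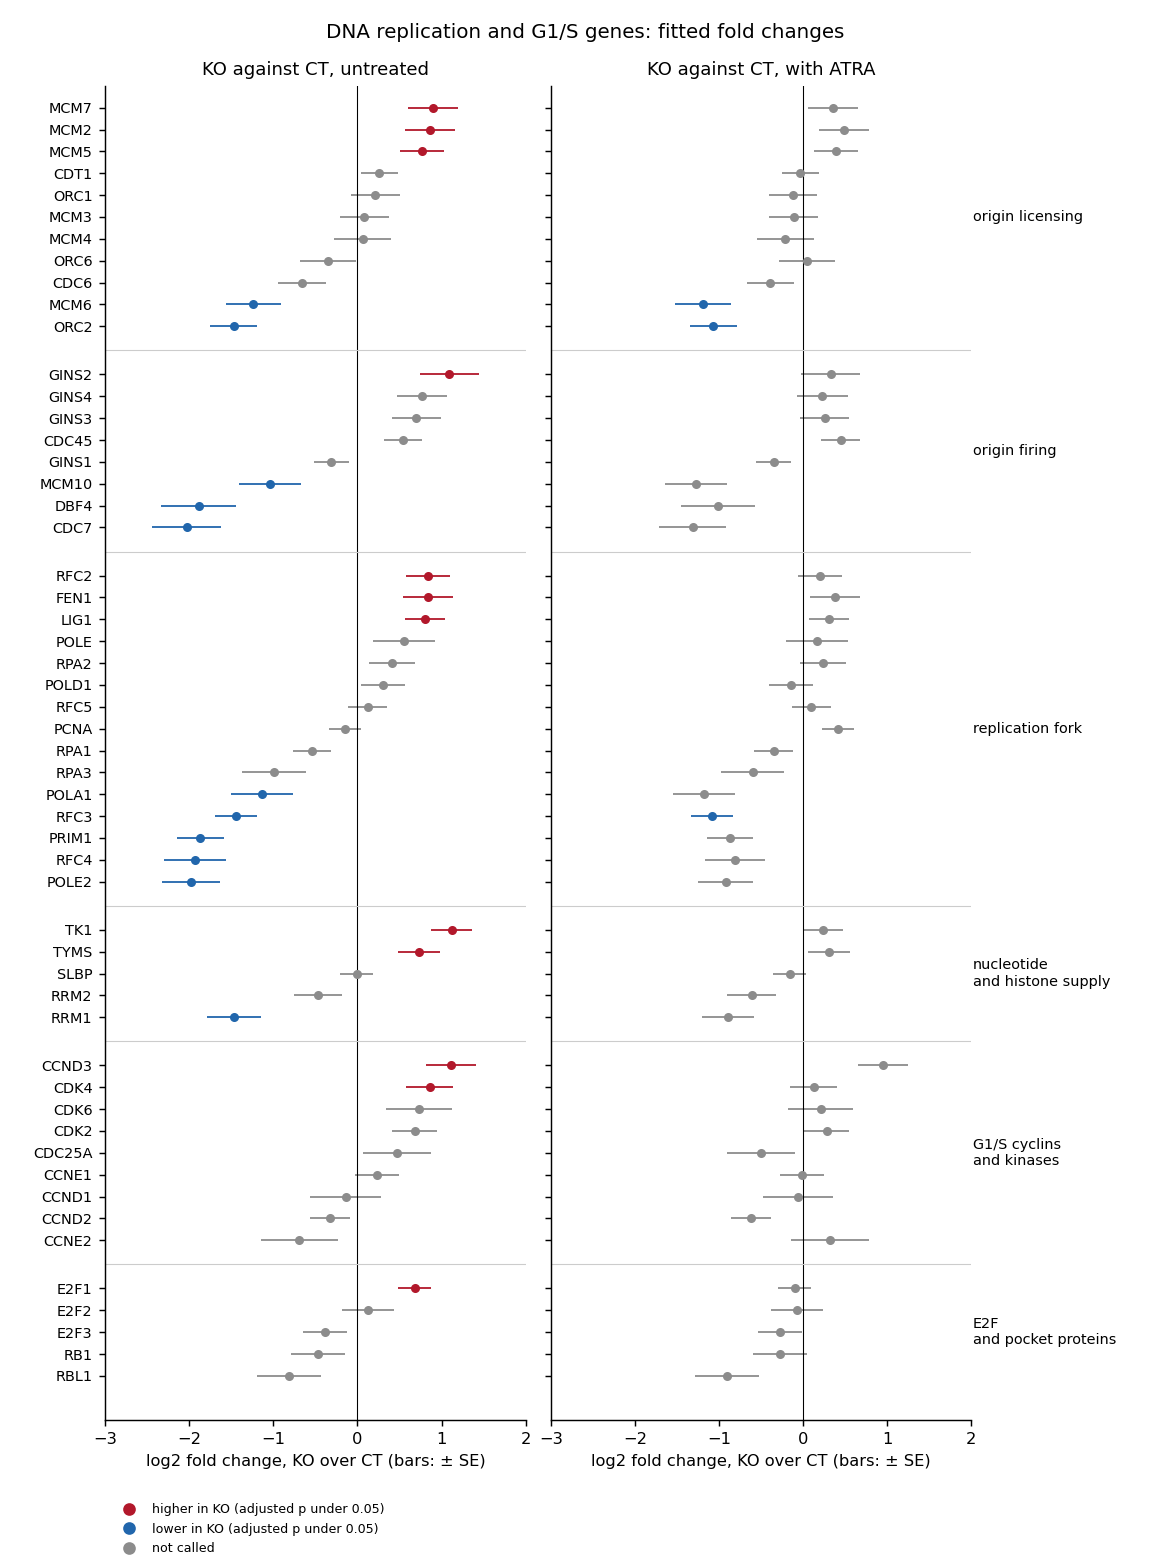
Fitted log2 fold change of each of the 53 members, KO over CT, without ATRA (left) and with ATRA (right), grouped by role, with bars of 1 standard error. Red marks higher and blue lower at an adjusted p under 0.05, grey not called; untreated cells had 12 red and 11 blue members, cells with ATRA 3 blue members.

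The total RNA of the set did not follow the split. The 53 genes summed to 6980, 6960 and 8070 CPM in KO untreated libraries, against 7410, 4870 and 5920 CPM in CT untreated libraries, and these ranges overlap. The 12 genes that rose summed to 3480, 3560 and 3980 CPM in KO untreated libraries, against 2620, 1730 and 1720 CPM in CT untreated libraries. The 11 genes that fell summed to 226, 192 and 210 CPM in KO untreated libraries, against 406, 622 and 753 CPM in CT untreated libraries. The 2 sums were chosen by the calls and are given as a description. In CT untreated cells the first library was closest to KO on the falling genes, and the other 2 lay further away. In bulk RNA, fewer cells in a cycle phase and less RNA per cell cannot be told apart.

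The members that rose and those that fell differed in base composition without overlap. GC content of the longest annotated transcript was 48.6 to 62.8% (median 56.4%) for the 12 that rose and 37.7 to 45.4% (median 43.2%) for the 11 that fell. The medians over all genes tested differed in the same direction, at 55.4% for those called higher and 41% for those called lower. Across the 53 members, the rank correlation of log2 fold change with GC content was 0.751, against 0.453 across all genes tested that have a GC value, while that with gene length was -0.011 across the members. The points of such a correlation share the same libraries, and it is given as a description. GC content also moved with genotype in the whole libraries: the rank correlation of a gene's level, relative to its mean over the libraries, with GC content was 0.223 to 0.617 in the 6 KO libraries and -0.497 to -0.29 in 5 of the 6 CT libraries, with 0.101 in CT ATRA 3.

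With the GC trend of each library removed, 11 members were called in untreated cells, 6 higher and 5 lower, against 18.7% of all genes. Of these, 8 were among the 23: GINS2, TYMS and TK1, which were higher in KO, and CDC7, PRIM1, POLE2, RFC4 and RRM1, which were lower. GINS3, GINS4 and CDK6, not called without this step, were called higher with it. RFC3 had a log2 fold change of -0.29 there, with an adjusted p of 0.345, and ORC2 one of -0.46 with an adjusted p of 0.125. None of the 11 licensing genes and none of the 5 E2F and pocket protein genes was called there. With the trend removed and the near-identical libraries summed, 0 members were called by edgeR, against 0.87% of all genes. PRIM1 had the lowest adjusted p of the 23 there, at 0.0717.

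**Figure D2:**
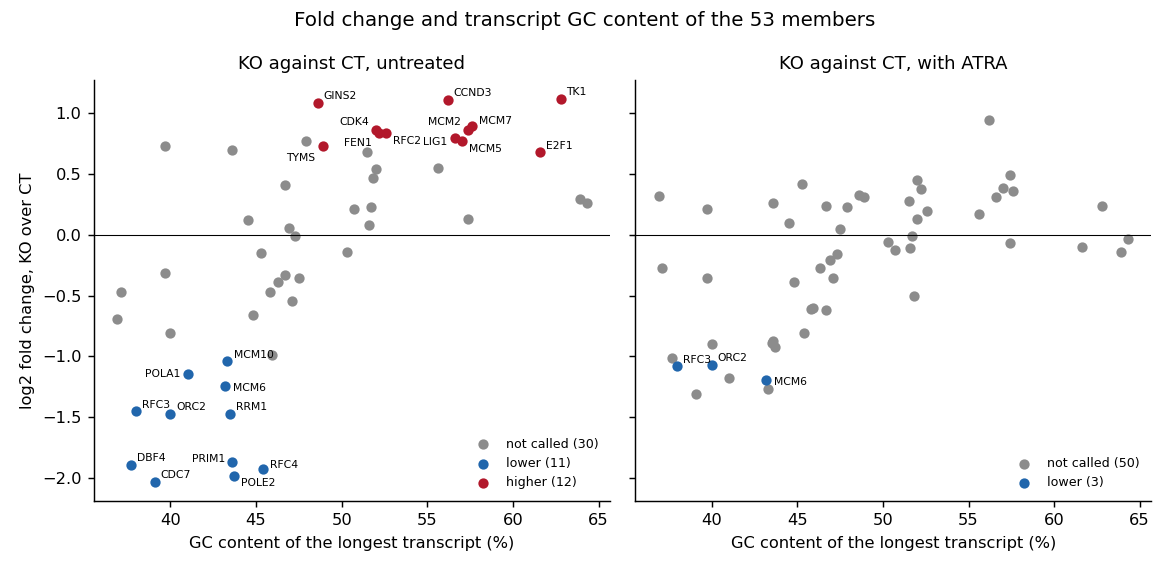
Log2 fold change of the 53 members, KO over CT, against the GC content of the longest annotated transcript in percent, without ATRA (left) and with ATRA (right). In untreated cells all 12 members called higher lie at 48.6% GC or above, and all 11 called lower at 45.4% or below.

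Among the 11 licensing genes, 3 rose and 2 fell in untreated KO cells. ORC2, a subunit of the origin recognition complex, stood at 16.4, 14.9 and 21.5 CPM in KO untreated libraries, against 39.7, 52.3 and 54.5 CPM in CT untreated libraries. All KO libraries lay below all CT libraries, with a log2 fold change of -1.47 ± 0.28 (SE) and an adjusted p of 0.00472, or 0.0505 with the near-identical libraries summed. ORC1 and ORC6, other subunits of that complex, and the loaders CDC6 and CDT1 were not called, with adjusted p of 0.0802 to 0.593 and KO libraries that overlapped with CT. ORC1, which binds origins in G1, had 104 ± 14.1 CPM in KO untreated cells and 90.3 ± 38.8 CPM in CT untreated cells (SD, n = 3 each).

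Of the MCM ring, which holds its 6 subunits in equal number, 3 members were called higher and 1 lower, and all 4 calls were lost with the GC trend removed and with the near-identical libraries summed. MCM7 had 880, 897 and 1090 CPM in KO untreated libraries, against 709, 320 and 510 CPM in CT untreated libraries. MCM2 had 428, 435 and 513 CPM in KO untreated libraries, against 368, 159 and 231 CPM in CT untreated libraries. MCM6 had 61.4, 49.0 and 47.1 CPM in KO untreated libraries, against 103, 87.8 and 180 CPM in CT untreated libraries. The KO libraries lay above all CT libraries for MCM7 and MCM2 and below all of them for MCM6. The log2 fold changes were 0.90 ± 0.30 for MCM7 (adjusted p 0.0351), 0.86 ± 0.30 for MCM2 (0.0443), 0.77 ± 0.26 for MCM5 (0.0406) and -1.24 ± 0.33 for MCM6 (0.0145). MCM3 and MCM4 were not called, at 0.08 ± 0.29 and 0.06 ± 0.34, and both turned negative when the libraries were scaled by their totals, to -0.14 and -0.15. With the near-identical libraries summed, the log2 fold changes were 0.95 for MCM7 (adjusted p 0.0988), 0.91 for MCM2 (0.116), 0.83 for MCM5 (0.107) and -1.27 for MCM6 (0.0701). After removal of the GC trend, the log2 fold changes were 0.48 for MCM7 (adjusted p 0.195), 0.44 for MCM2 (0.231), 0.34 for MCM5 (0.277) and -0.58 for MCM6 (0.132). Of the 12 fits that left out 1 library, MCM7 was called in 7, MCM2 and MCM5 in 4 each and MCM6 in 9. MCM6 has the lowest transcript GC content of the 6 at 43.2%, and MCM7 the highest at 57.6%.

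Per unit of the deposited gene length, MCM6 made up 3.39, 2.72 and 2.07% of the summed MCM2 to MCM7 level (RPKM) in KO untreated libraries, against 5.65, 10.2 and 12.5% in CT untreated libraries. MCM7 made up 45.6, 46.7 and 45.0% in KO untreated libraries, against 36.5, 35.0 and 33.2% in CT untreated libraries. By this measure, which depends on the length used for each gene, MCM7 was the most abundant of the 6 in every untreated library. Its share did not overlap between genotypes. These shares do not depend on the scaling between libraries, but they do carry the GC difference.

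**Figure D3:**
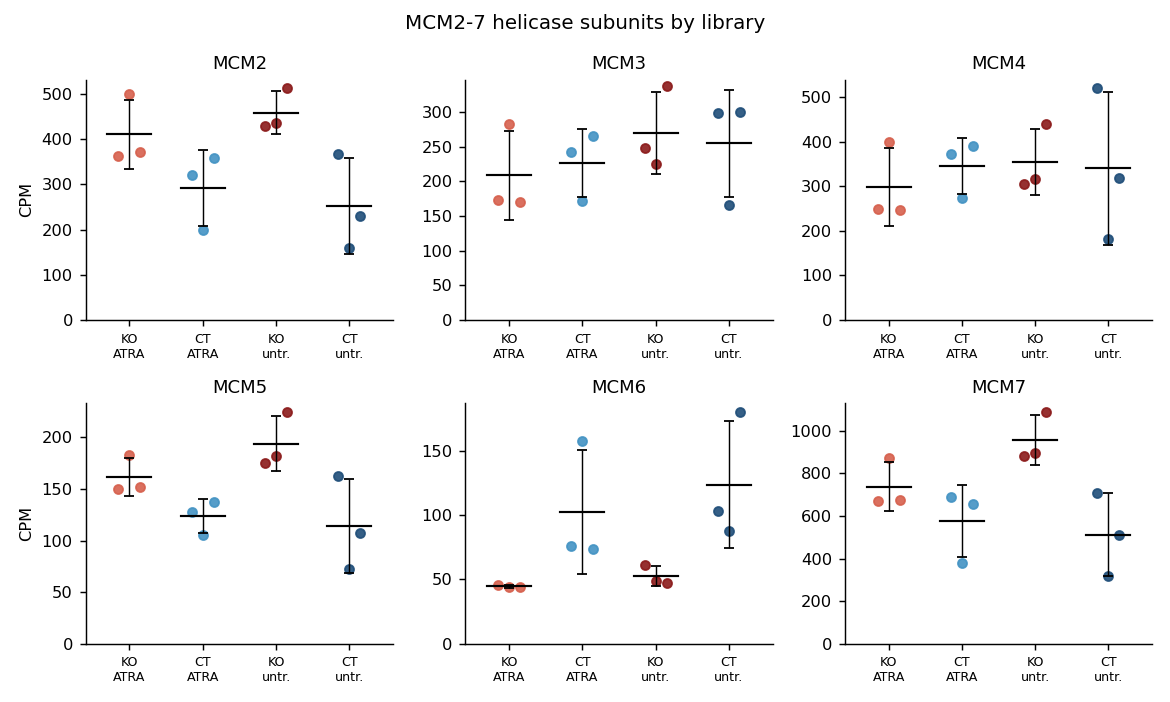
CPM of MCM2 to MCM7 in each of the 12 libraries, by group, with points for libraries, a line for the mean and bars of 1 SD. KO untreated libraries reached 880 to 1090 CPM for MCM7, above the 320 to 709 CPM of CT untreated libraries, and 47.1 to 61.4 CPM for MCM6, below the 87.8 to 180 CPM of CT untreated libraries.

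The promoters of 2 genes that rose and 2 that fell are shown because the E2F site is the element that these genes are best known to share, and because it lies in promoters of both directions. Each window runs from 250 bases before to 50 bases after the transcription start, read 5′ to 3′ on the gene's strand, from the RefSeq table on GRCh38.p14. Capitals mark the words TTTGGCGC, TTTCGCGC, TTTCCCGC and TTTGCCGC on either strand. The windows lie at chr7:100101348-100101647 on the minus strand (MCM7, rose), chr20:33686336-33686635 on the minus strand (E2F1, rose), chr2:135876394-135876693 on the minus strand (MCM6, fell) and chr13:33817899-33818198 on the plus strand (RFC3, fell).
MCM7: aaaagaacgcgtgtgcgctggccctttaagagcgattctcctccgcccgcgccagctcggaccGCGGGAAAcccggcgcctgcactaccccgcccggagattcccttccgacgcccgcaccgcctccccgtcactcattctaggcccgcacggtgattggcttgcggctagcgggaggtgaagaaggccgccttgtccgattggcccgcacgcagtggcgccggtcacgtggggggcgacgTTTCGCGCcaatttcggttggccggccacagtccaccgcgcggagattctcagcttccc
E2F1: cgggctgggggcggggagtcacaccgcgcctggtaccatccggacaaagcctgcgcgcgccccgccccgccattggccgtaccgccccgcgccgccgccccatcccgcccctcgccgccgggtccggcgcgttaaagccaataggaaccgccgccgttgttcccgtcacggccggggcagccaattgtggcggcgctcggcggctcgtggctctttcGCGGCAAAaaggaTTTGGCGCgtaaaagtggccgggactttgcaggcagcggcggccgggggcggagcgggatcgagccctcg
MCM6: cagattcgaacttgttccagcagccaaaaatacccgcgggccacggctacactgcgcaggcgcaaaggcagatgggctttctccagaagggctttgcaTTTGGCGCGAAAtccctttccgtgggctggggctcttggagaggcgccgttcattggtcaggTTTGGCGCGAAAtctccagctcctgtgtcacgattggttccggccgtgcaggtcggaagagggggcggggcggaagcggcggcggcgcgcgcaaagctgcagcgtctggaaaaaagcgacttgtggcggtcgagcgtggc
RFC3: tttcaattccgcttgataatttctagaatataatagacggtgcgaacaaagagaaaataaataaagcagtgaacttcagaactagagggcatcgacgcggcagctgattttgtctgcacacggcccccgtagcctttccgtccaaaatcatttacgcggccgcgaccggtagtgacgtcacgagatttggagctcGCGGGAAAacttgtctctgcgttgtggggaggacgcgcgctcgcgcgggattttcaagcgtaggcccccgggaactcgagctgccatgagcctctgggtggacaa

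MCM6, which fell, holds 4 such words in 2 places, since each run of capitals there reads as one word on each strand, and MCM7, which rose, holds 2. Of the 53 members, 44 have a window in the table, and 21 of these 44 (47.7%) hold at least 1 word, against 3.31% of all 35116 windows of the same length and 4.96% of those of genes tested. The word was present in 6 of the 11 members with a window that rose in untreated KO cells, in 4 of the 11 that fell and in 11 of the 22 not called. By role, it was present in 6 of 9 licensing genes, 4 of 5 E2F and pocket protein genes and 1 of 5 genes of nucleotide and histone supply. A match is a run of letters and not a measured site. The windows of the members that rose had a median GC content of 69.3%, against 62.7% for those that fell, and the ranges, 64 to 78.3% and 53 to 70.7%, overlapped, unlike those of the transcripts.

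Among the 8 origin firing genes, 1 rose and 3 fell in untreated KO cells. CDC7, the kinase that phosphorylates the MCM ring, had 9.21, 10.1 and 9.29 CPM in KO untreated libraries, against 19.6, 46.3 and 51.4 CPM in CT untreated libraries. DBF4, its activating subunit, had 12.1, 10.8 and 11.5 CPM in KO untreated libraries, against 20, 54.4 and 52.7 CPM in CT untreated libraries. Both were lower in every KO library, and for both the first CT library lay well below the other 2. CDC7 fell 4.09-fold (log2 -2.03 ± 0.41, adjusted p 0.00546) and DBF4 fell 3.70-fold (-1.89 ± 0.45, 0.00964). Removing the GC trend gave a log2 fold change of -0.88 for CDC7 (adjusted p 0.0285) and -0.61 for DBF4, which was no longer called (0.0974). CDC7 and DBF4 stayed called in all 12 fits that left out 1 library. With the near-identical libraries summed the adjusted p was 0.05 for CDC7, not under the threshold, and 0.0607 for DBF4.

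GINS2, a subunit of the GINS complex that joins the helicase, had 89.1, 85.1 and 138 CPM in KO untreated libraries, against 61.9, 40.3 and 44.3 CPM in CT untreated libraries. All KO libraries were higher, by 2.13-fold (log2 1.09 ± 0.35, adjusted p 0.0304), KO untreated 3 was the highest, and GINS2 was called in 7 of the 12 fits that left out 1 library. MCM10, a scaffold of the firing helicase, had 14.1, 11.6 and 12.7 CPM in KO untreated libraries, against 30.4, 13.0 and 35.5 CPM in CT untreated libraries. It was called lower (log2 -1.04 ± 0.37, adjusted p 0.0454) although CT untreated 2 lay within the KO range, and it stayed called in 2 of the 12 fits that left out 1 library. Its log2 fold change with the GC trend removed was -0.41 (adjusted p 0.381). CDC45 and GINS4 were higher in every KO library but not called, with adjusted p of 0.0805 and 0.0606. GINS3 and GINS1 were not called either, with 35.4 ± 6.32 and 42.4 ± 6.76 CPM in KO untreated cells and 21.8 ± 8.68 and 52.5 ± 12 CPM in CT untreated cells.

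Of the 15 fork genes, 3 rose and 5 fell in untreated KO cells. PRIM1, the catalytic subunit of primase, had 8.47, 7.75 and 8.05 CPM in KO untreated libraries, against 19.8, 35.3 and 33.5 CPM in CT untreated libraries. POLE2, an accessory subunit of DNA polymerase epsilon, had 3.62, 2.91 and 4.02 CPM in KO untreated libraries, against 8.99, 16.3 and 16.3 CPM in CT untreated libraries. RFC3, a subunit of the clamp loader, had 10.5, 9.85 and 12.8 CPM in KO untreated libraries, against 25.4, 29.0 and 36.4 CPM in CT untreated libraries. The groups did not overlap for any of the 3 genes. PRIM1 fell 3.65-fold (log2 -1.87 ± 0.28), with the lowest adjusted p among the members at 0.00249, POLE2 fell 3.94-fold (-1.98 ± 0.34, 0.00339) and RFC3 fell 2.73-fold (-1.45 ± 0.25, 0.00339). Together with RFC4, another clamp loader subunit (3.81-fold lower, adjusted p 0.00468), they were the members still called with the near-identical libraries summed, at 0.0408 to 0.0476.

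POLA1, the catalytic subunit of the primase-coupled polymerase alpha, had 24.7, 20.4 and 20.6 CPM in KO untreated libraries, against 33.9, 46.2 and 64.7 CPM in CT untreated libraries. It was lower in every KO library (log2 -1.14 ± 0.37, adjusted p 0.033), and with the GC trend removed its log2 fold change was -0.20 (adjusted p 0.595). Within the clamp loader, RFC2 rose 1.79-fold (adjusted p 0.0252) while RFC3 and RFC4 fell, and RFC5 was not called (51.3 ± 9.41 CPM in KO untreated cells and 47.4 ± 6.81 CPM in CT untreated cells). FEN1, a flap endonuclease, was 1.79-fold higher (adjusted p 0.0491) and LIG1, a DNA ligase, 1.74-fold higher (0.0252). RFC2, FEN1 and LIG1 were no longer called with the GC trend removed, at log2 0.46 (adjusted p 0.122), 0.49 (0.131) and 0.37 (0.204), and leaving out 1 library kept the call in 7, 4 and 7 of 12 fits. PCNA, the sliding clamp, had 156, 155 and 207 CPM in KO untreated libraries, against 188, 194 and 191 CPM in CT untreated libraries, and was not called (adjusted p 0.553). The catalytic polymerases POLD1 and POLE and the single-strand binding proteins RPA1, RPA2 and RPA3 were not called, with adjusted p of 0.0577 to 0.382.

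Of the 5 genes of nucleotide and histone supply, 2 rose and 1 fell in untreated KO cells. RRM1, the large subunit of ribonucleotide reductase, had 42.1, 34.1 and 39.0 CPM in KO untreated libraries, against 63.8, 119 and 136 CPM in CT untreated libraries. TK1, the thymidine kinase of the salvage pathway, had 87.9, 96.2 and 109 CPM in KO untreated libraries, against 59.3, 29.8 and 46.3 CPM in CT untreated libraries. TYMS, which makes thymidylate, had 206, 218 and 268 CPM in KO untreated libraries, against 195, 96.0 and 125 CPM in CT untreated libraries. No KO library overlapped with CT for any of the 3 genes, RRM1 lower (log2 -1.47 ± 0.32, adjusted p 0.00686) and TK1 and TYMS higher (1.12 ± 0.24, 0.00668, and 0.73 ± 0.25, 0.0366). RRM1 was at -0.87 with the GC trend removed (adjusted p 0.0445), and of the 12 fits that left out 1 library TYMS was called in 5. RRM2, the small subunit whose level limits the enzyme in S phase, had 71.4, 71.1 and 106 CPM in KO untreated libraries, against 166, 76.6 and 101 CPM in CT untreated libraries, and was not called (adjusted p 0.227). SLBP, which binds the stem-loop of histone mRNAs, had 62.1 ± 11.5 CPM in KO untreated cells and 62.7 ± 8.25 CPM in CT untreated cells (adjusted p 0.965).

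**Figure D4:**
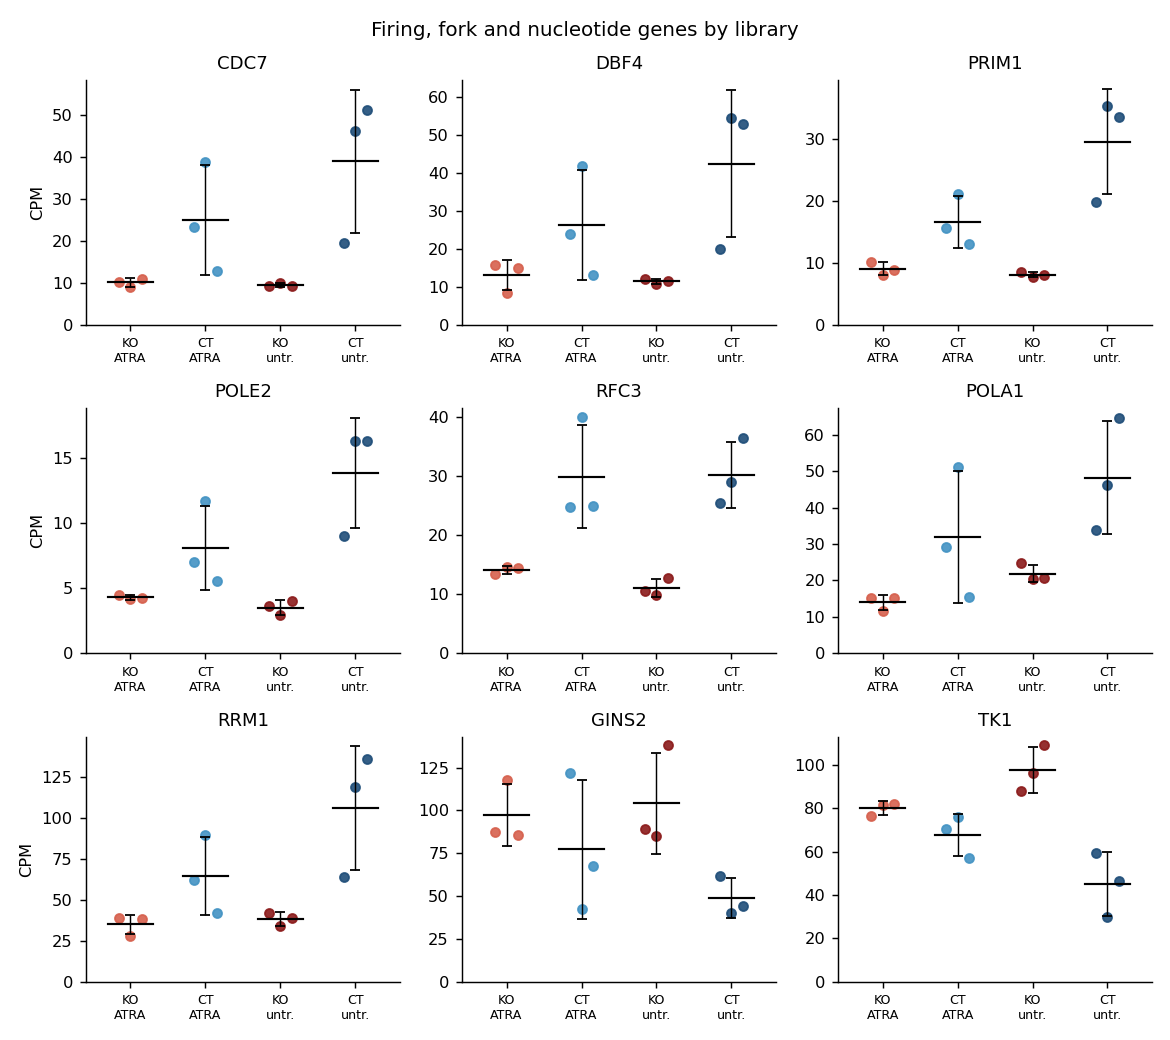
CPM of 9 genes of firing, fork and nucleotide supply in each of the 12 libraries, by group, with points for libraries, a line for the mean and bars of 1 SD. CDC7, DBF4, PRIM1, POLE2, RFC3, POLA1 and RRM1 are lower and GINS2 and TK1 higher in all KO untreated libraries than in all CT untreated libraries; CT ATRA 3 lies near the KO ATRA libraries for CDC7 (12.9 CPM), DBF4 (13.2 CPM) and POLA1 (15.4 CPM).

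Of the 9 G1/S cyclins and kinases, CCND3 and CDK4 rose in untreated KO cells and none fell. CCND3, one of the D cyclins, had 46.8, 50.3 and 36.7 CPM in KO untreated libraries, against 18.7, 24.2 and 19.2 CPM in CT untreated libraries. CDK4, the kinase partner of the D cyclins, had 1020, 1050 and 958 CPM in KO untreated libraries, against 611, 744 and 315 CPM in CT untreated libraries. Both were higher in every KO library, CCND3 by 2.16-fold (log2 1.11 ± 0.30, adjusted p 0.0162) and CDK4 by 1.82-fold (0.86 ± 0.28, 0.0329), and with the near-identical libraries summed the adjusted p was 0.0777 for CCND3 and 0.114 for CDK4. Neither was called with the GC trend removed, at log2 0.65 (adjusted p 0.118) for CCND3 and 0.47 (0.275) for CDK4.

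CCND1 had 408, 413 and 456 CPM in KO untreated libraries, against 731, 246 and 431 CPM in CT untreated libraries. CCND2 had 505, 460 and 438 CPM in KO untreated libraries, against 617, 553 and 588 CPM in CT untreated libraries. The CT values of CCND1 spread on both sides of KO, and those of CCND2 lay above KO without passing the test: log2 fold changes were -0.14 (95% interval -0.96 to 0.68) for CCND1 and -0.33 (-0.79 to 0.14) for CCND2. By RPKM, CCND3 was the least abundant D cyclin in every library: its share of the 3 was 5.4, 5.95 and 4.26% in KO untreated libraries, against 1.46, 3.43 and 2.07% in CT untreated libraries. That share did not overlap between genotypes.

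CDK6, the other partner of the D cyclins, had 71.4, 66.5 and 36.2 CPM in KO untreated libraries, against 29.9, 22.8 and 52.4 CPM in CT untreated libraries. CDK2, the partner of the E cyclins, had 122, 122 and 125 CPM in KO untreated libraries, against 94.0, 66.0 and 69.9 CPM in CT untreated libraries. CDK2 was higher in every KO library and CDK6 was not, and neither was called: log2 0.68 (95% interval 0.16 to 1.21, adjusted p 0.0647) for CDK2 and 0.73 (-0.03 to 1.49, adjusted p 0.156) for CDK6. CDC25A, the phosphatase that activates CDK2, had 117, 117 and 179 CPM in KO untreated libraries, against 167, 47.1 and 84.6 CPM in CT untreated libraries. Its groups overlapped (log2 0.47, 95% interval -0.32 to 1.26).

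The E cyclins were not called either. CCNE1 had 42.4, 44.4 and 67.9 CPM in KO untreated libraries, against 54.4, 31.7 and 45.9 CPM in CT untreated libraries, with overlapping groups (log2 0.23, 95% interval -0.29 to 0.75). CCNE2 had 1.83, 1.70 and 1.97 CPM in KO untreated libraries, against 2.03, 3.87 and 2.94 CPM in CT untreated libraries, all KO libraries being lower (log2 -0.69, -1.60 to 0.22). By RPKM, CCNE1 averaged 20.1 in KO untreated cells and 17.1 in CT untreated cells, against 0.417 and 0.67 for CCNE2, so nearly all cyclin E transcript came from CCNE1. With the GC trend removed, the log2 fold change of CCNE2 turned positive, to 0.59, and was not called (adjusted p 0.279). Its transcript has the lowest GC content of the 53, at 36.9%, and the part of this in the change of sign was not tested.

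E2F1 was the member of the E2F and pocket protein group that changed. E2F1, an activator of S-phase genes, had 78.4, 88.6 and 92.4 CPM in KO untreated libraries, against 57.8, 47.2 and 57.4 CPM in CT untreated libraries. Every KO library was higher, by 1.60-fold (log2 0.68 ± 0.20, adjusted p 0.0215, or 0.087 with the near-identical libraries summed). E2F1 was at log2 0.33 and not called with the GC trend removed (adjusted p 0.193). The other activators were not called. E2F2 had 9.84, 11.7 and 10.3 CPM in KO untreated libraries, against 11.1, 5.34 and 12.6 CPM in CT untreated libraries (log2 0.13, 95% interval -0.48 to 0.75). E2F3 had 31.1, 28.7 and 31.0 CPM in KO untreated libraries, against 55.4, 27.0 and 36.4 CPM in CT untreated libraries (log2 -0.39, -0.89 to 0.12). CT libraries lay on both sides of the KO libraries for both genes.

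RB1, which binds and silences activator E2Fs, had 11.2, 10.2 and 7.19 CPM in KO untreated libraries, against 11, 11.2 and 17.3 CPM in CT untreated libraries. RBL1, the related pocket protein p107, had 4.43, 4.52 and 3.68 CPM in KO untreated libraries, against 7.02, 5.11 and 9.99 CPM in CT untreated libraries. RB1 overlapped between the groups and RBL1 was lower in every KO library, and neither passed the test, with log2 fold changes of -0.47 (95% interval -1.10 to 0.17) and -0.81 (-1.55 to -0.07, adjusted p 0.109). With the GC trend removed these were 0.75 and 0.20.

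**Figure D5:**
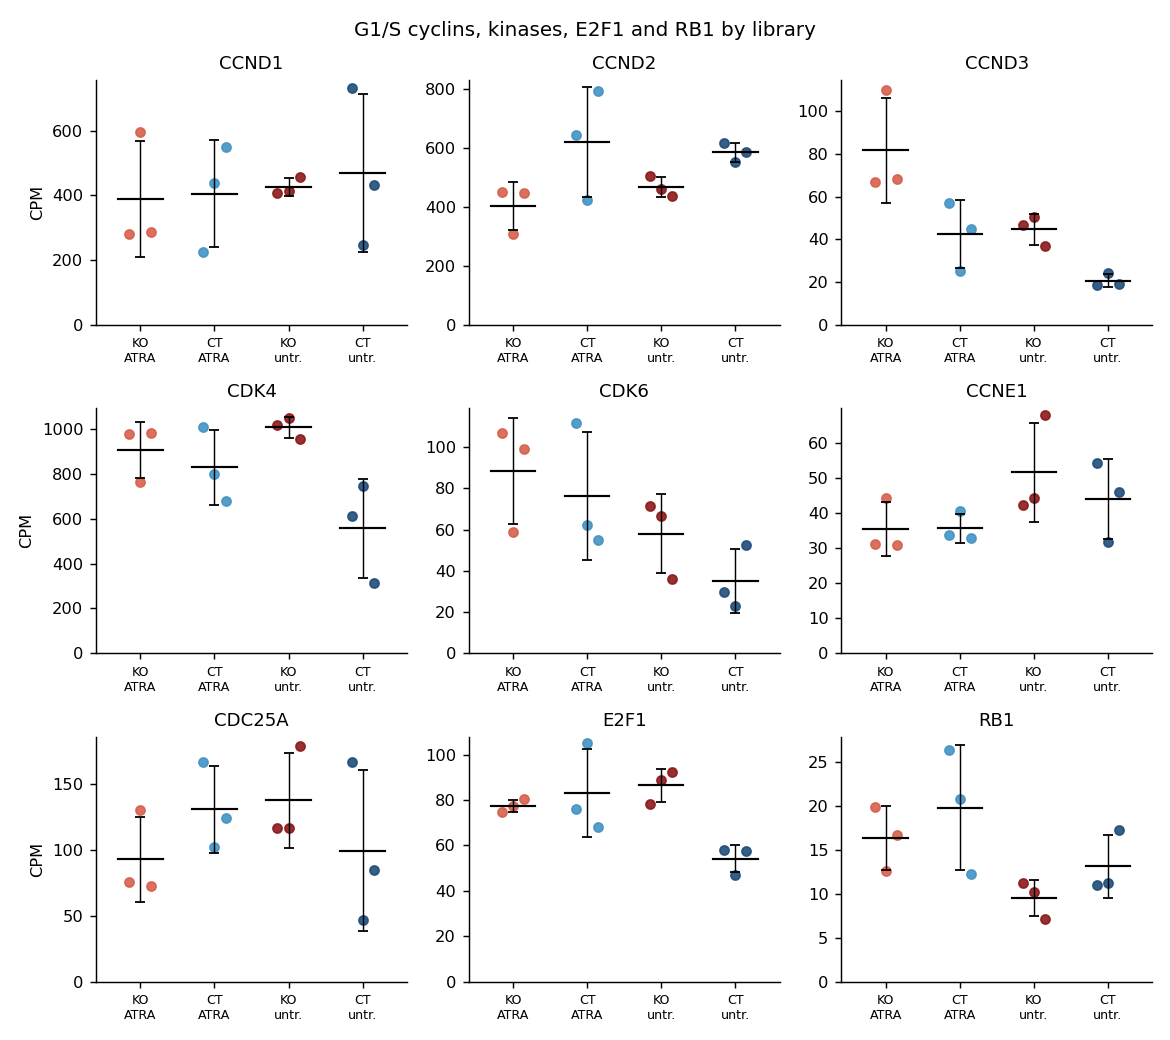
CPM of 9 G1/S regulators in each of the 12 libraries, by group, with points for libraries, a line for the mean and bars of 1 SD. CCND3, CDK4 and E2F1 are higher in all KO untreated libraries than in all CT untreated libraries; CCND3 is also higher in all KO ATRA libraries (66.8 to 110 CPM) than in all CT ATRA libraries (25.2 to 56.8 CPM).

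With ATRA, 3 of the 53 members were called between KO and CT, all lower in KO: ORC2, MCM6 and RFC3, each of which also fell without ATRA. They are 5.66% of the members, against 7.51% of all genes tested, 3.27% higher and 4.24% lower. The median log2 fold change was -0.10 over the members and -0.06 over all genes. Libraries did not overlap for 8 members that were higher in KO and 12 that were lower, against 16.7% higher and 17.9% lower of all genes, together 34.6%. The rank correlation of the members' log2 fold changes with GC content was 0.591, against 0.29 over all genes with a GC value. With the near-identical libraries summed, without KO untreated 3 and KO ATRA 2, or with the GC trend removed, 0 members were called by edgeR. Of all genes, 0.359%, 4.47% and 6.97% were called in these fits. At an unadjusted p under 0.05 they had 10, 8 and 11 members, against 3384, 4463 and 4581 of all genes. The main fit had 15 members and 5376 of all 19130 genes at an unadjusted p under 0.05. DESeq2 called 8 members and 15.5% of all genes.

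RFC3 had 13.4, 14.6 and 14.4 CPM in KO ATRA libraries, against 24.8, 40.0 and 24.9 CPM in CT ATRA libraries. ORC2 had 14.5, 17.6 and 13.7 CPM in KO ATRA libraries, against 26.9, 46.2 and 23.4 CPM in CT ATRA libraries. MCM6 had 45.9, 44.3 and 43.9 CPM in KO ATRA libraries, against 75.6, 158 and 73.5 CPM in CT ATRA libraries. All KO libraries were lower for the 3 genes, and CT ATRA 2 was the highest library for each. The log2 fold changes were -1.08 ± 0.25 for RFC3 (adjusted p 0.0248), -1.07 ± 0.28 for ORC2 (0.0389) and -1.19 ± 0.33 for MCM6 (0.0457). Removal of the GC trend left -0.48 for RFC3 (adjusted p 0.191), -0.48 for ORC2 (0.172) and -0.80 for MCM6 (0.0845). Without CT ATRA 2, 0 members were called by edgeR, and likewise without KO ATRA 1, 2 or 3. The shares of all genes called in these fits were 3.21, 1.22, 4.2 and 1.11%.

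Of the other 8 members that fell without ATRA, 7 were lower in every KO ATRA library without being called. MCM10 had 8.72, 6.40 and 8.37 CPM in KO ATRA libraries, against 14.5, 27.9 and 14.3 CPM in CT ATRA libraries (adjusted p 0.0559). CDC7 had 10.3, 9.07 and 11 CPM in KO ATRA libraries, against 23.3, 38.9 and 12.9 CPM in CT ATRA libraries (0.0625). PRIM1 had 10.2, 8.04 and 8.90 CPM in KO ATRA libraries, against 15.6, 21.1 and 13.0 CPM in CT ATRA libraries (0.0657). For CDC7 and PRIM1 CT ATRA 3 was the control library nearest to KO, while for MCM10 CT ATRA 1 and 3 were nearly equal. CT ATRA 3 is also the CT library with a positive correlation of level with GC content (0.101). Its stromal sum, 2810 CPM, is the highest of the CT libraries. The part of either trait in these values was not tested. POLA1 followed with 15.2, 11.7 and 15.3 CPM in KO ATRA libraries, against 29.3, 51.3 and 15.4 CPM in CT ATRA libraries (0.0696), and RRM1 with 38.7, 28.2 and 38.1 CPM in KO ATRA libraries, against 62.3, 89.7 and 42.0 CPM in CT ATRA libraries (0.0957). POLE2 had 4.49, 4.14 and 4.24 CPM in KO ATRA libraries, against 7.01, 11.7 and 5.55 CPM in CT ATRA libraries (0.101). CT ATRA 2 was the highest library for all of these genes. DBF4 was the exception among the 8, with overlapping groups at 15.8, 8.48 and 14.9 CPM in KO ATRA libraries, against 23.9, 41.8 and 13.2 CPM in CT ATRA libraries.

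None of the 12 genes that rose without ATRA was called with it. CCND3 had 66.8, 110 and 68.3 CPM in KO ATRA libraries, against 56.8, 25.2 and 45.0 CPM in CT ATRA libraries (log2 0.95 ± 0.30, adjusted p 0.0709). E2F1 had 74.7, 77.2 and 80.3 CPM in KO ATRA libraries, against 75.9, 105 and 68.2 CPM in CT ATRA libraries (log2 -0.10, 95% interval -0.49 to 0.29). CDK4 had 978, 764 and 983 CPM in KO ATRA libraries, against 1010, 801 and 680 CPM in CT ATRA libraries (log2 0.13, -0.42 to 0.68). CCND3 was the one of these 3 without overlap between genotypes. MCM2 had 362, 499 and 371 CPM in KO ATRA libraries, against 321, 198 and 359 CPM in CT ATRA libraries, every KO library being higher (adjusted p 0.313). MCM7 had 669, 870 and 676 CPM in KO ATRA libraries, against 690, 381 and 658 CPM in CT ATRA libraries (0.454), and GINS2 had 87.5, 118 and 85.9 CPM in KO ATRA libraries, against 122, 42.5 and 67.6 CPM in CT ATRA libraries (0.563). In both genes CT ATRA 1 reached or passed the KO range and CT ATRA 2 lay furthest below it. TK1 had 76.3, 81.4 and 82.1 CPM in KO ATRA libraries, against 70.2, 75.9 and 57.1 CPM in CT ATRA libraries (0.539). TYMS had 219, 253 and 210 CPM in KO ATRA libraries, against 209, 169 and 173 CPM in CT ATRA libraries (0.436), while RRM2 had 75.8, 113 and 72.0 CPM in KO ATRA libraries, against 127, 121 and 150 CPM in CT ATRA libraries (0.198). TK1 and TYMS were higher and RRM2 lower in every KO ATRA library.

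The remaining regulators were not called with ATRA. RBL1 had 3.54, 3.46 and 3.22 CPM in KO ATRA libraries, against 5.81, 9.88 and 3.40 CPM in CT ATRA libraries (adjusted p 0.144), and RB1 had 19.9, 12.6 and 16.7 CPM in KO ATRA libraries, against 26.4, 20.8 and 12.3 CPM in CT ATRA libraries. CCND2 had 451, 309 and 449 CPM in KO ATRA libraries, against 645, 423 and 795 CPM in CT ATRA libraries (0.114). CCND1 had 282, 595 and 288 CPM in KO ATRA libraries, against 225, 439 and 550 CPM in CT ATRA libraries, so KO ATRA 2, the library low in stromal genes, stood apart from the near-identical pair here too. CDK6 had 107, 58.9 and 99.3 CPM in KO ATRA libraries, against 112, 62.4 and 54.9 CPM in CT ATRA libraries, and CDK2 had 127, 147 and 122 CPM in KO ATRA libraries, against 148, 63.4 and 115 CPM in CT ATRA libraries. For both kinases CT ATRA 1 was the highest library, and the groups overlapped. CDC25A had 75.7, 130 and 72.7 CPM in KO ATRA libraries, against 167, 102 and 124 CPM in CT ATRA libraries. CCNE1 had 31.3, 44.2 and 30.8 CPM in KO ATRA libraries, against 33.6, 40.5 and 32.8 CPM in CT ATRA libraries, and CCNE2 had 3.28, 1.03 and 4.21 CPM in KO ATRA libraries, against 2.25, 2.94 and 1.66 CPM in CT ATRA libraries. In KO ATRA 2 CDC25A and CCNE1 were at their highest and CCNE2 at its lowest among the KO ATRA libraries. E2F2 had 9.74, 10.3 and 7.58 CPM in KO ATRA libraries, against 10.5, 10.7 and 7.88 CPM in CT ATRA libraries, and E2F3 had 25.7, 35.7 and 26.1 CPM in KO ATRA libraries, against 32.5, 34.8 and 38.1 CPM in CT ATRA libraries. These 7 regulators had adjusted p of 0.437 to 0.986, and the KO and CT libraries overlapped for each.

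No member was called between ATRA and no ATRA in either genotype. In KO cells 0 of 53 were called by edgeR, against 0.0314% of all genes tested (6 genes). An unadjusted p under 0.05 was reached by 4 members and 2233 of all 19130 genes, and DESeq2 called 0 members and 2.93% of all genes. In CT cells 0 of 53 were called by edgeR, against 0.115% (22 genes). An unadjusted p under 0.05 was reached by 10 members and 3961 of all 19130 genes, and DESeq2 called 4 members and 8.47% of all genes. The lowest adjusted p was that of CCND3 in both, at 0.268 in KO cells and 0.0985 in CT cells. CCND3 had 66.8 to 110 CPM in KO ATRA libraries, against 36.7 to 50.3 CPM in KO untreated libraries, and 25.2 to 56.8 CPM in CT ATRA libraries, against 18.7 to 24.2 CPM in CT untreated libraries. It is the member whose libraries did not overlap in any of these comparisons nor between genotypes. E2F1 had 68.2 to 105 CPM in CT ATRA libraries, against 47.2 to 57.8 CPM in CT untreated libraries (adjusted p 0.12), where the KO libraries, at 74.7 to 80.3 CPM with ATRA and 78.4 to 92.4 CPM without, overlapped. RB1 had 12.6 to 19.9 CPM in KO ATRA libraries, against 7.19 to 11.2 CPM in KO untreated libraries (adjusted p 0.366).

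The difference between the ATRA effects of the genotypes was tested as an interaction. By edgeR 0 members were called, against 0% of all genes tested, and by DESeq2 0 members, against 0.0627% of all genes. In the edgeR fit, 5 members and 1868 of all genes had an unadjusted p under 0.05. E2F1, PRIM1, TK1, POLE2 and RFC4 were these 5, each with an adjusted p of 0.509. It is therefore not shown that the genotype differences with and without ATRA differ for any member. The comparisons share libraries: each KO and each CT group enters a genotype comparison and an ATRA comparison.

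In untreated cells, 13% of all genes tested were called higher and 21.9% lower, and the counts below for genes outside the 53 stand beside these shares. Of 32 other replication genes, 2 rose (POLA2 and CHAF1B) and 15 fell in untreated KO cells, with a median log2 fold change of -0.80 against -0.11 over all genes. With the GC trend removed, 3 of the 32 were called higher and 4 lower, with a median of -0.27, against 8.52% higher and 10.2% lower of all genes. With the near-identical libraries summed, 0 were called higher and 3 lower, against 2.04% and 3.38% of all genes. The origin recognition subunit ORC5 had 3.94, 3.70 and 4.28 CPM in KO untreated libraries, against 10.5, 14.8 and 13.4 CPM in CT untreated libraries (adjusted p 0.00252), and DONSON, a helicase assembly factor, had 14.5, 15.1 and 16.0 CPM in KO untreated libraries, against 30.7, 47.0 and 45.1 CPM in CT untreated libraries (0.0029). Both were lower in every KO library, and with the GC trend removed ORC5 was at log2 -0.78 (adjusted p 0.0439) and DONSON at -1.06 (0.011). With ATRA, 0 of the 32 were called by edgeR, against 7.51% of all genes. An unadjusted p under 0.05 was reached by 14 of the 32 and 5376 of all 19130 genes.

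Of 8 other E2F and RB genes, E2F4 rose and E2F6, TFDP2 and RBL2 fell without ATRA, and 0 were called with ATRA, 1 having an unadjusted p under 0.05. With the GC trend removed, E2F6 was the 1 gene of these 8 called in untreated cells, and the median log2 fold change of the list was 0.21 in place of -0.57. Of 12 genes of G2 and mitosis, 0 rose and 6 fell in untreated KO cells, among them the cyclin CCNA2 with 29.8, 26.6 and 43.6 CPM in KO untreated libraries, against 69.0, 85.9 and 94.0 CPM in CT untreated libraries (adjusted p 0.00363). With the GC trend removed, or with the near-identical libraries summed, 2 of the 12 were called lower and 0 higher, and CCNA2 was at log2 -0.50 (adjusted p 0.075) in the fit without the GC trend. With ATRA, 0 of the 12 were called higher and 3 lower, against 3.27% and 4.24% of all genes. In the ATRA comparison 2 were called lower with the GC trend removed (3.52% of all genes) and 0 with the libraries summed (0.111%). Of 7 CDK inhibitors, 3 rose and 1 fell in untreated KO cells, against 3 and 0 with the GC trend removed and 1 and 0 with the near-identical libraries summed. With ATRA, 1 of the 7 was called higher and 1 lower, against the same shares of all genes with ATRA. CDKN1A, the inhibitor p21, which blocks cyclin E with CDK2 and binds PCNA, had 595, 648 and 404 CPM in KO untreated libraries, against 38.5, 32.5 and 56.5 CPM in CT untreated libraries (adjusted p 0.000167, or 0.000563 with the GC trend removed and 0.00317 with the near-identical libraries summed). With the libraries summed and the GC trend removed, 0 genes of the replication, E2F and RB, and mitosis lists were called by edgeR in untreated cells, against 0.87% of all genes. These lists had 9, 1 and 1 genes at an unadjusted p under 0.05, against 4824 of all 19777 genes. Of the marker lists, 0 of 9 pluripotency genes rose and 1, SOX2, fell in untreated KO cells, and 3 of 9 neuron genes rose and 2 fell.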

How the data were processed

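RNA from 12 NT2/D1 libraries (4 groups of 3) was sequenced after a stranded mRNA preparation, per the labels' protocols. The authors deposited unnormalized whole-number counts for each gene. The submitters' processing notes name bcl2fastq, TopHat2, Subread, featureCounts and DESeq2, and the builds hg19 and GRCh37. For versions, annotation, strand setting and multi-mapped reads the entry is: not given in the sources used here.

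From these counts, genes were kept with filterByExpr (minimum count 10), scaled with TMM and fitted with edgeR 4.0.16 in R 4.3.3 (glmQLFit, glmQLFTest, 1 coefficient per group over all 12 libraries), with Benjamini-Hochberg adjusted p-values (19130 genes) called under 0.05. The biological coefficient of variation was 0.367. The standard error of a log2 fold change is its size over the root of F, and the 95% interval is approximate. CPM used TMM-scaled totals, and RPKM added the deposited gene length. The depth was 25469881 to 60394918 counts. A chi-square per gene of 1 is counting error alone: it was 1.91 between KO ATRA 1 and 3, where counting error is a large part of the difference, 9.01 between KO untreated 1 and 2, and 78.1 to 416 for other pairs of a group. All values are rounded to 3 significant digits.

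The 53 members, their 6 roles and the 7 other lists were chosen with earlier results of these data known. Any member may be named. Values in every library are given for the G1/S and E2F roles and, in each other role, for up to 3 members of lowest adjusted p in each genotype comparison; PCNA is an addition made after its values were seen. Of the other lists, genes at the called ends are named. GC content came from the longest GENCODE v44 transcript, matched by name (53 of 53 members, 91.6% of tested genes of at least 5 CPM), and promoter windows from RefSeq on GRCh38.p14 for 44 members; coordinates were not mixed with those of the counts. ZFP42 and ELAVL4, from the marker lists, did not pass the filter. The fit was tested on simulated counts that held no GC trend and no near-identical libraries. That test therefore cannot show how the fit behaves where these are present, as they are here. DESeq2 1.42.0, limma-voom 3.58.1, other scalings and filters, a replicate block, left-out or summed libraries and removal of the GC trend were tried as alternatives; the last 2 together, and the alternatives for roles and other lists, were chosen after seeing the data. Replicate numbers did not pair the libraries, since deviations of same-numbered libraries correlated at -0.673 to 0.628.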

Additional observations from a re-analysis of the deposited data

How the results depend on the processing

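For KO against CT in untreated cells, 23 members were called, 14 when a change of at least 2-fold was also required, 4 with the near-identical KO libraries summed, 10 without KO untreated 3 and KO ATRA 2, 11 with the GC trend removed and 0 with that trend removed and the near-identical libraries summed, which was chosen after seeing the data. In the same order, the shares of all genes called were 34.9, 26.9, 5.42, 22.7, 18.7 and 0.87%. Leaving out 1 library gave 9 to 27 members, against 15.5 to 42.8% of all genes. It gave 9 without CT untreated 3 (18.1%) or KO untreated 2 (15.5%) and 10 without KO untreated 3 (24.2%). It gave 11 without KO untreated 1 (19.2%) and 15 without CT untreated 2 (27.8%). With ATRA, 3 members were called, 8 by DESeq2, 6 with no filter and 1 by limma-voom. The shares of all genes were 7.51, 15.5, 6.32 and 5.31%. The count was 0 with the compared groups only, with the near-identical libraries summed, without KO untreated 3 and KO ATRA 2, with the GC trend removed and with both changes. The shares of all genes called there were, in the same order, 4.31, 0.359, 4.47, 6.97 and 0.496%. Leaving out 1 library gave 0 to 8 members, against 1.11 to 10.9% of all genes. It gave 8 without CT ATRA 3 (10.5%), 5 without CT untreated 1 (10.5%) and 1 without KO untreated 1 (4.27%) or 2 (4.15%). For ATRA against no ATRA, CT cells gave 0 members in the main test, 4 with DESeq2, 3 with no filter, 5 without CT untreated 2 and CT ATRA 2 and 0 to 6 with 1 library left out (6 without CT untreated 1 or CT ATRA 2). The shares of all genes were 0.115, 8.47, 3.84, 9.87 and 0 to 12.4%. They were 12.4% without CT untreated 1 and 12.3% without CT ATRA 2. KO cells gave 0, and 1 with the compared groups only, against 0.0314% and 7.6% of all genes. A replicate block gave 22 members in untreated cells (13 higher and 9 lower) and 1 with ATRA, and 0 in the ATRA comparisons and the interaction. Of all genes, the block gave 30.2% in untreated cells, 3.98% with ATRA, 0.0209% for ATRA in CT cells and 0 elsewhere. The cause of these shifts was not tested. Leaving out or summing libraries also leaves fewer of them for the test, and the part of this was not tested either.

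No member changed sign in a comparison in which it was called. Of the others, 15 turned in untreated KO against CT and 16 with ATRA under at least 1 alternative, and all of these values follow. In untreated cells, removal of the GC trend gave log2 fold changes of -0.04 for ORC1, -0.01 for CDT1, -0.25 for MCM3, 0.65 for GINS1, 0.00 for POLD1, 0.15 for PCNA, 0.01 for SLBP, -0.11 for CCNE1, 0.59 for CCNE2, -0.29 for E2F2, 0.75 for RB1 and 0.20 for RBL1. With the near-identical libraries also summed they were -0.17 for MCM3, 0.72 for GINS1, 0.23 for PCNA, 0.09 for SLBP, 0.00 for CCNE1, 0.63 for CCNE2, -0.31 for E2F2, 0.68 for RB1 and 0.16 for RBL1. With library totals they were 0.00 for ORC1, -0.14 for MCM3, -0.15 for MCM4, -0.10 for RFC5 and -0.09 for E2F2. Without KO untreated 3 and KO ATRA 2 they were -0.11 for MCM3, -0.13 for MCM4, -0.04 for RFC5 and -0.02 for CCNE1, and without CT untreated 2 and CT ATRA 2 they were -0.04 for ORC1, -0.16 for MCM3, -0.26 for MCM4 and -0.17 for E2F2. SLBP was at 0.06 by DESeq2 and with RLE size factors, 0.05 with the compared groups only and 0.07 with the libraries summed. With 1 library left out, values ran from -0.03 to 0.60 for ORC1, -0.15 to 0.21 for MCM3, -0.25 to 0.51 for MCM4, -0.04 to 0.24 for RFC5, -0.17 to 0.11 for SLBP, -0.45 to 0.33 for CCND1, -0.02 to 0.41 for CCNE1 and -0.16 to 0.37 for E2F2.

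With ATRA, removal of the GC trend gave 0.14 for GINS1, -0.03 for POLE, -0.07 for CDK4 and 0.31 for RB1, and with the libraries also summed 0.01 for CDT1, 0.22 for GINS1, -0.14 for CDK4 and 0.28 for RB1. Summing alone gave 0.02 for CDT1, 0.01 for MCM3, 0.12 for CCND1 and 0.08 for CCNE1. DESeq2 and RLE size factors gave 0.02 for CDT1 and 0.04 for CCNE1, the stricter filter 0.00 for CDT1 and 0.02 for CCNE1, and library totals -0.03 for ORC6. Without CT untreated 2 and CT ATRA 2 values were -0.05 for ORC6, 0.10 for CDT1, -0.02 for RFC2, -0.07 for RFC5, -0.01 for RPA2, 0.00 for CCND1 and E2F2, 0.09 for CCNE1 and 0.10 for E2F1, and without KO untreated 3 and KO ATRA 2 they were -0.25 for ORC6 and -0.01 for RFC5. With 1 library left out, they ran from -0.34 to 0.03 for ORC1, -0.25 to 0.20 for ORC6, -0.12 to 0.11 for CDT1, -0.40 to 0.04 for MCM3, -0.02 to 0.53 for RFC2, -0.07 to 0.30 for RFC5, -0.01 to 0.52 for RPA2, -0.51 to 0.25 for CCND1, -0.20 to 0.09 for CCNE1, -0.08 to 0.71 for CCNE2, -0.20 to 0.10 for E2F1 and -0.17 to 0.05 for E2F2.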
